A study of Mus musculus with 22 samples.

Results

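The genes described here are 10 mouse genes of glutathione use, metal binding and oxidative stress defence: the glutathione peroxidases Gpx2, Gpx3 and Gpx4, the glutathione synthesis genes Gclm and Gclc, the glutathione transferase Gsta4, the stress enzymes Nqo1 and Hmox1, and the metallothioneins Mt1 and Mt2. They were taken by their symbol in the deposited probe profiles, 10 of 18002 genes on the MouseRef-8 array and 10 of 30942 on the MouseWG-6 array. Gpx2 was chosen by its level in medium with CHIR99021 and Mt2 by its difference between lines, so those values are given as a description, with no test. All 10 genes passed the filter on dim probes in the first set of arrays and 9 in the second, where Gclc did not.

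Reduced glutathione is the main small thiol of the cell and is made in a pair of steps, the first by the glutamate-cysteine ligase of Gclc and Gclm. Glutathione peroxidases use it to reduce peroxides, and glutathione transferases join it to reactive compounds. Metallothioneins bind zinc and copper through their cysteines and are transcribed through the metal sensor MTF1. Many genes of this defence, Nqo1, Gclm and Hmox1 among them, are targets of the transcription factor NRF2. Mouse embryonic stem cells are grown without serum by blocking differentiation signals, and the inhibitors used here act on kinases upstream of many genes.

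The 22 samples are Illumina bead arrays of RNA from 4 embryonic stem cell lines, all kept in N2B27, a serum-free medium, with LIF, the cytokine that sustains these cells. PD medium held PD0325901, an inhibitor of MEK, SB medium held SB431542, an inhibitor of the TGF-beta, Activin and Nodal type I receptors, R2i medium held both, and 2i medium held PD0325901 with CHIR99021, an inhibitor of GSK3. The C57BL/6 lines B18 and B20 each had 3 PD, 3 R2i and 2 2i arrays on MouseRef-8, and the lines B4 (C57BL/6) and C17 (BALB/c) each had 1 PD, 1 R2i and 1 SB array on MouseWG-6. B18 and B20 were derived from blastocysts in R2i medium, stayed there for more than 10 passages and were then moved into the other media for 10 passages, so a difference from R2i cannot be told apart from the move. The labels' protocols describe only B18 and B20, and each group is 1 or 2 lines, so nothing here stands for a strain.

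Between 10822 and 11670 of 25697 probes were detected on the B18 and B20 arrays and between 13591 and 14366 of 45281 on the B4 and C17 arrays. All arrays of B18 were on one chip and all of B20 on another, with a medium always at the same positions, so chip cannot be told apart from line, nor position from medium. B20 PD replicate 3 correlated with the other B20 PD arrays at 0.990 and 0.992 across genes, below the 0.995 between those arrays. The 2i arrays of a line correlated at 0.993 in B18 and 0.992 in B20, so values near 0.992 were not limited to that array. For C17 in PD and in SB a cell line field names B4 while the titles name C17. Over the 100 genes that differed most between the R2i arrays of the lines, the array titled C17 PD lay nearer that of C17 for 90 and the one titled C17 SB for 96, and the titles were used. All 8 embryonic stem cell markers, Pou5f1 and Nanog among them, were detected on every array. In bulk samples, fewer cells of a type and less RNA per cell cannot be told apart. Levels below are log2 values after background correction and quantile normalisation, and SE is the moderated standard error of limma. P-values are limma's with Benjamini-Hochberg adjustment across the 9207 genes tested in B18 and B20 or the 11003 in B4 and C17, and a gene passed at an adjusted p below 0.05. No label names replicates as separate cultures, so p-values measure only how far these arrays spread, and that spread may be technical.

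Gpx2 encodes the gastrointestinal glutathione peroxidase, a selenoprotein first described in the gut epithelium, and is known as a target of both Wnt signalling and NRF2. In B18 its level was 6.03, 6.28 and 6.32 in PD, 6.53, 6.66 and 6.53 in R2i, and 8.51 and 8.63 in 2i. In B20 it was 6.66, 6.70 and 6.43 in PD, 7.15, 7.21 and 7.26 in R2i, and 8.44 and 8.67 in 2i. In both lines the order was thus PD, R2i and 2i with no overlap between media, and the 4 2i arrays were the highest of the 16. The level in 2i was 2.16 log2 units above PD (SE 0.08, a fold of 4.47), 2.36 in B18 and 1.96 in B20, and R2i minus 2i was -1.67 (SE 0.08). These are the values that chose the gene, and they carry no test.

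The promoter of Gpx2 is shown because the gene was chosen by its level with a GSK3 inhibitor. As background, inhibiting GSK3 stabilises beta-catenin, which acts through TCF/LEF factors. The sequence is RefSeq's, assembly GRCm38.p6, chr12:76795505-76795804, minus strand, from 250 bases before the start of the gene to 50 after it, printed in the direction of the gene. Capitals mark matches to the TCF/LEF core, for which the search on both strands took CTTTGAA as well as the word CTTTGAT, then also the word CTTTGTA and lastly the word CTTTGTT.
Gpx2 promoter: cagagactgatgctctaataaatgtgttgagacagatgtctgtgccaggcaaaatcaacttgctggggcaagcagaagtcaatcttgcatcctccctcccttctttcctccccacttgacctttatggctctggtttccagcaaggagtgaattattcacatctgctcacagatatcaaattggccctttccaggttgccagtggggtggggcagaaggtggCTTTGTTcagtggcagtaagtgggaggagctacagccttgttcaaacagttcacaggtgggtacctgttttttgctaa
The window held 1 match, CTTTGTT, beginning 28 bases before the start. At least 1 such match lay in 16.9% of all 32851 promoter windows of the table, so it describes these letters and does not mark a site. The antioxidant response core, spelled TGACNNNGC, had no match in this window.

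Gpx2 also differed between media without CHIR99021, which did not choose it. In R2i it was 0.49 log2 units above PD in B18 and B20 (SE 0.07, a fold of 1.40, limma adjusted p = 0.000156), 0.36 in B18 and 0.61 in B20. In B4 it was 7.75 in PD, 8.41 in R2i and 9.66 in SB, and in C17 it was 7.14, 8.0 and 9.57. Both lines therefore had the same order, PD lowest and SB highest, and the SB arrays stood above all others. PD minus SB was -2.18 log2 units (SE 0.16, a fold of 4.52, limma adjusted p = 0.000144) and R2i minus SB -1.41 (SE 0.16, adjusted p = 0.00419), and both calls were lost without the filter on dim probes (adjusted p = 0.0611 and 0.193). R2i was 0.76 above PD in these lines (SE 0.16, adjusted p = 0.130), which did not pass. PD minus SB differs in both inhibitors, R2i minus SB by PD0325901 alone, and R2i minus PD by SB431542 alone.

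**Figure D1:**
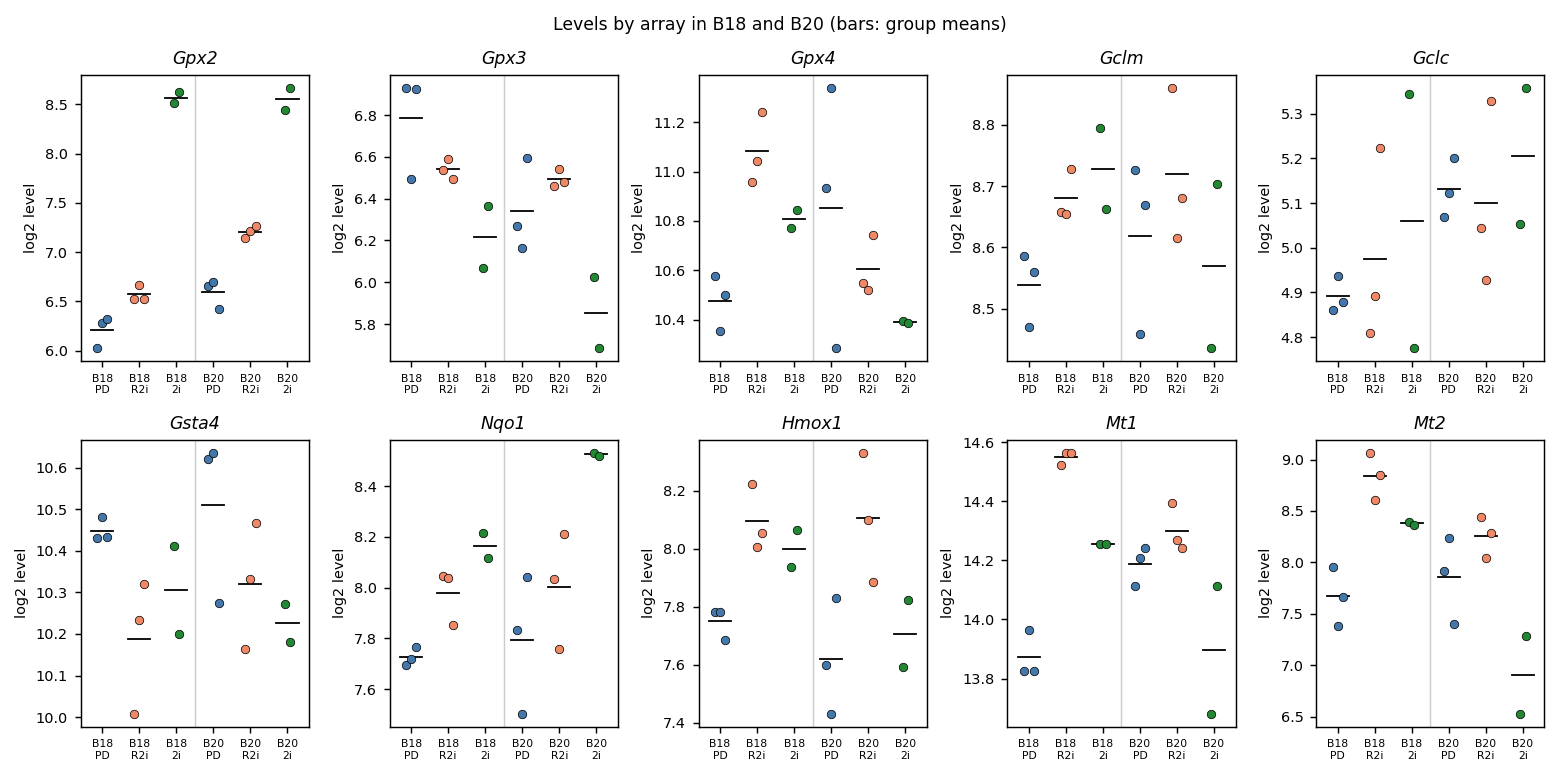
Log2 level of each gene (vertical axis, its own range per panel) on the 16 arrays of B18 and B20, by line and medium on the horizontal axis; points are arrays and bars are group means. Gpx2 was highest on the 4 2i arrays (8.44 to 8.67), and Mt2 in 2i was 8.37 and 8.40 in B18 but 6.53 and 7.28 in B20.

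Over the 16 arrays of B18 and B20, the named genes with the pattern most like that of Gpx2 were Osm, Fkbp6, Trim50, Fmr1nb and Piwil1 (Pearson's r 0.95, 0.95, 0.95, 0.94 and 0.94). These correlations are descriptions: the points share chip, medium and array position, and each of the 5 genes had all its 2i arrays above all its other arrays, as Gpx2 did. Fkbp6, which acts in the piRNA pathway of the germline, was at 9.35 to 9.82 in 2i and at 6.41 to 8.26 elsewhere. Piwil1, a piRNA-binding Argonaute protein, was at 6.04 to 6.31 in 2i and at 5.30 to 5.75 elsewhere. Among the other members, Nqo1 ran most like Gpx2 (r = 0.77) and Gpx3 most against it (r = -0.76).

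Gpx3 is the secreted plasma glutathione peroxidase and went the other way in 2i. In B18 it was 6.93, 6.50 and 6.93 in PD and 6.07 and 6.36 in 2i, and in B20 it was 6.27, 6.16 and 6.59 in PD and 6.03 and 5.68 in 2i. Within each line the 2i arrays were below every PD array. The difference was -0.53 log2 units (SE 0.11, limma adjusted p = 0.00185), a fold of 1.44. R2i arrays lay at 6.49 to 6.59 in B18 and 6.46 to 6.54 in B20, which was 0.48 above 2i (SE 0.11, adjusted p = 0.00295) and at -0.05 from PD (95% interval -0.25 to 0.16). In B18 alone the difference of R2i from 2i, 0.32, did not pass (adjusted p = 0.157). In B4, Gpx3 was 6.48 in PD, 5.89 in R2i and 5.90 in SB, and in C17 it was 5.63, 5.71 and 5.60, with no difference between media that passed (limma adjusted p = 0.423 to 0.922).

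Gpx4 reduces lipid peroxides in membranes and is the enzyme that restrains ferroptosis. Over both lines it did not pass in any comparison of media, while in B18 alone R2i was 0.60 log2 units above PD (SE 0.18, limma adjusted p = 0.0301). Its levels in B18 were 10.35 to 10.58 in PD, 10.96 to 11.24 in R2i and 10.77 and 10.84 in 2i. In B20 they were 10.93, 11.34 and 10.28 in PD, 10.52 to 10.74 in R2i and 10.39 and 10.39 in 2i. The lines thus ran in opposite directions, PD lowest in B18 and, but for replicate 3, highest in B20. The difference between lines in R2i against PD was -0.85 (SE 0.25, limma adjusted p = 0.0692) and in 2i against PD -0.79 (SE 0.28, adjusted p = 0.165). Without B20 PD replicate 3 both passed, at -1.14 (adjusted p = 0.000817) and -1.08 (adjusted p = 0.00424). A second, dimmer Gpx4 probe showed -0.02 (SE 0.18) and 0.02 (SE 0.20) for the same differences, so the probes disagreed.

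Gclm, the modifier subunit of glutamate-cysteine ligase, was nearly level in B18 and B20, with all 16 arrays between 8.44 and 8.86 and no difference between media that passed. In B4 it was 10.20 in PD, 10.41 in R2i and 10.61 in SB, and in C17 it was 9.08, 9.29 and 9.94. SB was highest in both lines, and PD minus SB was -0.64 log2 units (SE 0.16, limma adjusted p = 0.0483), a call lost in 6 of 12 alternative analyses. Gclc, the catalytic subunit, was dim: it was detected on 6 of 16 arrays in B18 and B20 (4.78 to 5.36) and on 1 of 6 in B4 and C17, so it had no test in the latter. Its 2i minus PD difference was 0.12 (95% interval -0.12 to 0.36, limma adjusted p = 0.490). Gsta4, a transferase that conjugates the lipid peroxidation product 4-hydroxynonenal, lay between 10.01 and 10.64 in B18 and B20. Its R2i minus PD difference was -0.23 (SE 0.08, limma adjusted p = 0.0644), which did not pass.

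Nqo1 encodes a quinone reductase and is a classic NRF2 target. In B18 it was 7.69, 7.72 and 7.76 in PD, 8.04, 8.04 and 7.85 in R2i, and 8.21 and 8.11 in 2i. In B20 it was 7.83, 7.50 and 8.04 in PD, 8.03, 7.76 and 8.21 in R2i, and 8.53 and 8.52 in 2i. Within each line 2i was above every array of the other media, while PD and R2i overlapped in B20. The 2i level was 0.59 log2 units above PD (SE 0.10, limma adjusted p = 0.000467), and R2i minus 2i was -0.36 (SE 0.10, adjusted p = 0.0143), a difference that in B18 alone, at -0.19, did not pass (adjusted p = 0.408). R2i minus PD was 0.23 (SE 0.09, adjusted p = 0.0873), which did not pass, and without B20 PD replicate 3 it did, at 0.29 (adjusted p = 0.0238). In B4 Nqo1 was 8.25 in PD, 8.69 in R2i and 8.93 in SB, and in C17 it was 9.13, 9.29 and 9.53. The order PD, R2i, SB was shared by both lines, but PD minus SB, at -0.54 (SE 0.15, limma adjusted p = 0.0651), did not pass. A second Nqo1 probe was detected on none of the 16 arrays of B18 and B20 and on 1 of 6 of B4 and C17.

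Hmox1, the inducible haem oxygenase, was higher in R2i than in PD. In B18 it was 7.78, 7.78 and 7.69 in PD and 8.22, 8.01 and 8.05 in R2i. In B20 it was 7.60, 7.43 and 7.83 in PD and 8.33, 8.10 and 7.88 in R2i. The R2i arrays lay above every PD array of the same line, and the difference was 0.41 log2 units (SE 0.09, a fold of 1.33, limma adjusted p = 0.00259). In B18 alone, at 0.34, it did not pass (adjusted p = 0.0664). In 2i it was at 7.94 and 8.06 in B18 and at 7.59 and 7.82 in B20, and did not pass against either medium. In B4 it was 6.88 in PD, 7.45 in R2i and 7.03 in SB, and in C17 6.35, 6.83 and 6.69, so R2i was highest in both. The R2i minus PD difference of 0.53 there (SE 0.14, limma adjusted p = 0.257) did not pass.

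The metallothioneins Mt1 and Mt2 are neighbouring genes that are usually induced together by zinc and other metals. The promoters below, from RefSeq's assembly GRCm38.p6, show what they share at the sequence level. Each runs from 250 bases before the start to 50 after it, plus strand, Mt2 at chr8:94172368-94172667 and Mt1 at chr8:94178839-94179138. Capitals mark matches to the core of the metal response element, the site of MTF1, searched on both strands as TGCACNC and TGCGCNC.
Mt1 promoter: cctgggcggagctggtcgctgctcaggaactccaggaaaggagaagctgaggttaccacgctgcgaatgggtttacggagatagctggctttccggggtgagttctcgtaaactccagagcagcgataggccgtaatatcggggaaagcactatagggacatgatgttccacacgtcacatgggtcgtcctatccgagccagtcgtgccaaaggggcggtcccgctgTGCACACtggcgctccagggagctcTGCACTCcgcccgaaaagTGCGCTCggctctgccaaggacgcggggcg
Mt2 promoter: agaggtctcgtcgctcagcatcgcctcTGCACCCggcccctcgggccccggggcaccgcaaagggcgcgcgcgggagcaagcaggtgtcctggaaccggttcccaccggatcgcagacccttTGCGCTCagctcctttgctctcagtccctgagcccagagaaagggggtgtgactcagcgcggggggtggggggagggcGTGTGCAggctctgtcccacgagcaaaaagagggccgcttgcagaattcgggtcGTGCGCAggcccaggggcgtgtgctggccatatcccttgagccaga
Mt1 held 3 matches and Mt2 held 4, and 25.7% of all 32851 windows held at least 1. Mt2 also held 1 match to TGACNNNGC, which lies in 12.4% of windows and overlaps no capital here. RefSeq's table listed windows for 7 of the 10 genes. Of these, Gclm held 3 metal response cores and 1 antioxidant response core, a pair of which overlap, and Gpx3, Gpx4 and Nqo1 held no match to any motif searched.

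In B18, Mt2 was 7.96, 7.38 and 7.66 in PD, 9.07, 8.60 and 8.85 in R2i, and 8.40 and 8.37 in 2i. In B20 it was 7.92, 8.24 and 7.40 in PD, 8.44, 8.04 and 8.29 in R2i, and 6.53 and 7.28 in 2i. R2i was highest in B18 without overlap, in B20 it overlapped PD, and the B20 2i arrays were the lowest of the 16. Averaged over media, B20 was at -0.62 log2 units from B18 (SE 0.13), which is the value that chose Mt2. By medium the lines were close in PD (means 7.67 in B18 and 7.85 in B20), B20 was lower in R2i (8.25 against 8.84), and the widest gap was in 2i (6.91 against 8.38). The 2i minus PD difference was accordingly 0.71 in B18 and -0.95 in B20, an unlike sign that carries no test because the line difference chose the gene. Between B4 and C17 the line difference had the other sign, 0.24 (SE 0.16), with C17 higher in PD and R2i and lower in SB.

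R2i against the other media did not choose Mt2. R2i was 0.79 log2 units above PD (SE 0.15, a fold of 1.72, limma adjusted p = 0.00132), 1.17 in B18 and 0.40 in B20, and in B20 alone it did not pass (adjusted p = 0.269). It was 0.90 above 2i (SE 0.17, limma adjusted p = 0.000690), and in B18 alone, at 0.46, it did not pass (adjusted p = 0.200). In B4 Mt2 was 7.85 in PD, 8.43 in R2i and 8.34 in SB, and in C17 it was 8.18, 9.06 and 8.11. R2i was the highest medium in both of these lines too, 0.73 above PD (SE 0.19, limma adjusted p = 0.242), which did not pass in 3 arrays per line.

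Mt1 was at the top of the measured range, which limits what its values show. In B18 it was 13.83, 13.96 and 13.83 in PD, 14.52, 14.56 and 14.56 in R2i, and 14.26 on both 2i arrays. In B20 it was 14.11 to 14.24 in PD, 14.24 to 14.39 in R2i, and 13.68 and 14.11 in 2i. B18 PD and R2i did not overlap, while B20 PD and R2i met at 14.24. The B18 2i arrays, equal at 14.26, read 18040 and 16287 raw and 14.30 and 14.36 after median scaling. Quantile normalisation sets a level by its rank, so ties near the top are not equal signals. R2i was 0.40 log2 units above PD (SE 0.07, limma adjusted p = 0.000765), 0.68 in B18 and 0.11 in B20, and in B20 alone it did not pass (adjusted p = 0.536). R2i was 0.35 above 2i (SE 0.08, limma adjusted p = 0.00340), a call lost under median scaling (adjusted p = 0.0728) and in B18 alone (0.29, adjusted p = 0.0809). The raw signal was 13088 to 23727 in B18 and B20, where the brightest probe of an array read 22285 to 32226 and Mt1 ranked between 7 and 63 from the top. In B4 and C17 it ranked between 1 and 30, and its 6 normalised levels lay between 14.45 and 14.68 with no medium or line difference that passed. The raw intensities of Mt1 are plotted against the brightest probe of each array.

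**Figure D2:**
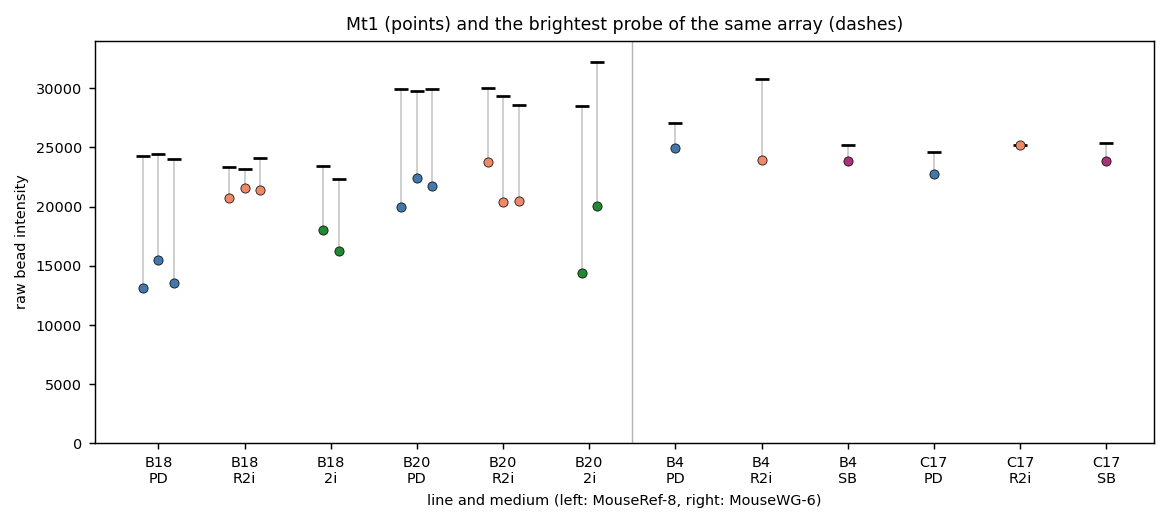
Raw bead intensity of Mt1 (points, vertical axis from 0) and of the brightest probe on the same array (dashes), by line and medium on the horizontal axis. Mt1 was at 13088 to 15455 in B18 PD and at 20743 to 21592 in B18 R2i, and on the C17 R2i array it was itself the brightest probe, at 25167.

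The 2i minus PD value of Mt1 was 0.39 log2 units in B18 and -0.29 in B20, a difference between lines of -0.68 (SE 0.16, limma adjusted p = 0.0402). Between R2i and PD the difference of B20 from B18 was -0.57 (SE 0.14, adjusted p = 0.0334). Both calls depended on the processing. The first was lost in 16 of 23 alternative analyses, among them the replicate block and median scaling (adjusted p = 0.0512 with each) and the removal of most single arrays, and without B20 2i replicate 1 it was -0.46 (adjusted p = 0.134). The second was lost in 10 of 23, median scaling among them (adjusted p = 0.0674). Of 8 members tested, Mt1 was the 1 called in the first and of 9 the 1 called in the second, where 1.72% and 4.27% of all genes were called. Across the 16 arrays Mt1 and Mt2 ran together (r = 0.82), a description over arrays that share chip and medium. The genes most like Mt2 were Rgs9, Odf2, Irx2, Ube2l6 and Ahi1 (r 0.86, 0.85, 0.85, 0.84 and 0.84).

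Counted over the members, 2i against PD called 2 of 9 (Nqo1 higher, Gpx3 lower), where 23.6% of all genes were called, so the share of members was close to the background. R2i against PD called 4 of 10, all higher in R2i (Gpx2, Hmox1, Mt1 and Mt2), against 18.8% of all genes, and the members' median difference was 0.20 log2 units against 0.01 over all genes. R2i against 2i called 4 of 9 (Gpx3, Mt1 and Mt2 higher, Nqo1 lower), against 27.6%. These comparisons share arrays, so they are not independent of each other. The members were chosen with earlier results of these data known, so no count of members, here or between lines, tests the group. In B4 and C17, R2i against PD called 0 of 9 members by limma, where 0.136% of all genes were called. At an unadjusted p below 0.05 there were 3 of the 9. The share of all genes at that threshold was not taken, so this count has no background. R2i against SB called 1 of 9 (Gpx2, lower) against 2.20%, and PD against SB called 2 of 9 (Gpx2 and Gclm, lower) against 5.23%.

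**Figure D3:**
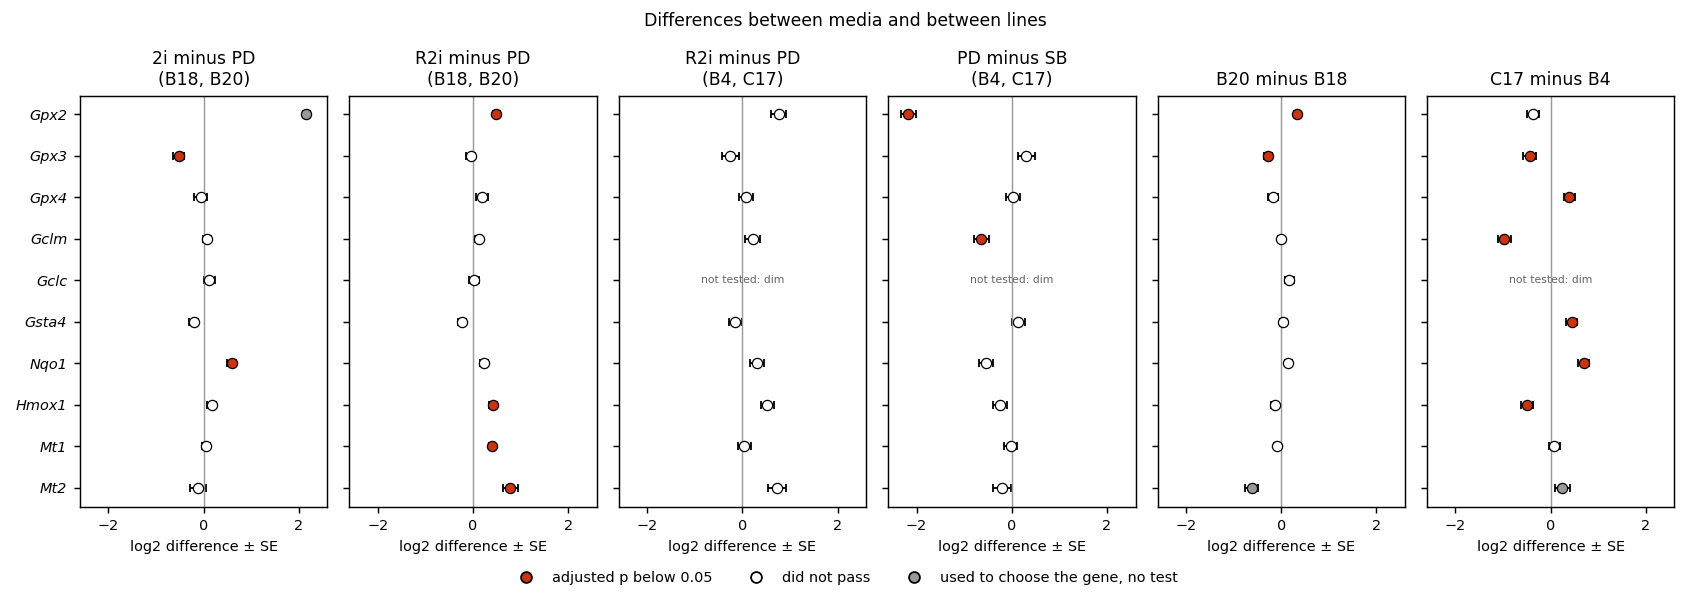
Log2 difference (horizontal axis) with its SE for each gene in 6 comparisons; red points passed at an adjusted p below 0.05, white points did not, and grey points are the values that chose Gpx2 and Mt2. Gpx2 ranges from -2.18 in PD minus SB to 2.16 in 2i minus PD, and most other differences lie within 1 log2 unit of 0.

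Set side by side, the R2i minus PD values in the separate arrays of B4 and C17 had the same sign as in B18 and B20 for Gpx2 (0.76 and 0.49), Hmox1 (0.53 and 0.41), Mt2 (0.73 and 0.79) and Nqo1 (0.30 and 0.23). For Mt1, near the top of the range, the values were 0.04 and 0.40. The Gpx4 probe at 0.18 in B18 and B20 was at -0.0045 (SE 0.14) in B4 and C17, where the brighter probe was at 0.08.

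**Figure D4:**
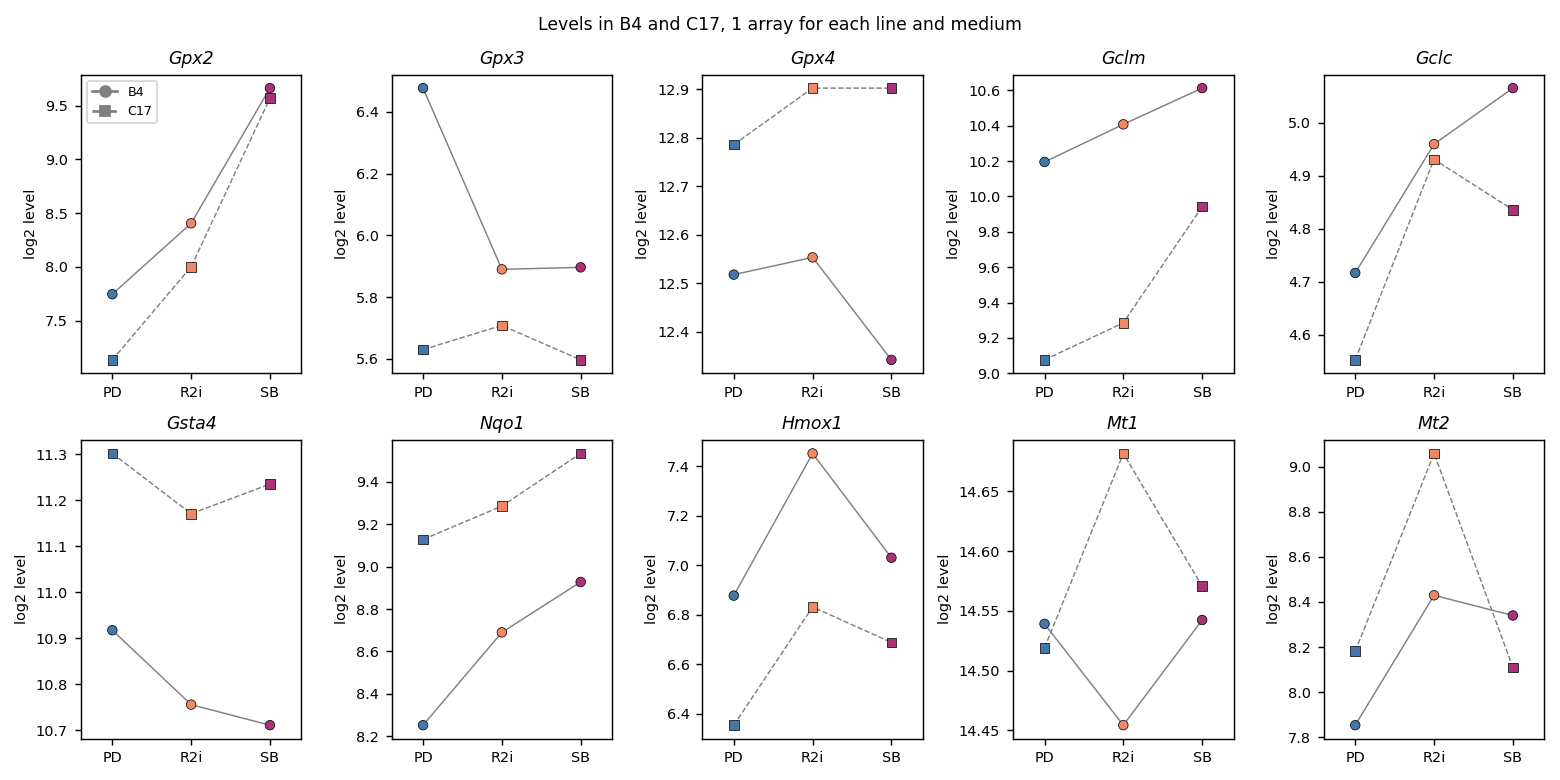
Log2 level of each gene (vertical axis, its own range per panel) on the 6 arrays of B4 (circles) and C17 (squares) in PD, R2i and SB. Gpx2 rises from 7.14 and 7.75 in PD to 9.57 and 9.66 in SB, and Gclm is lower and Nqo1 higher in C17 in each medium.

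Between lines, B20 against B18 called 2 of 9 members, Gpx2 higher by 0.34 (SE 0.06, limma adjusted p = 0.00121) and Gpx3 lower, at -0.28 (SE 0.08, adjusted p = 0.0173), where 33.0% of all genes were called. Of the genes called, 47.7% were higher in B20, and 36.98% under median scaling. The means of Gpx2 in B18 and B20 were 6.21 and 6.59 in PD, 6.57 and 7.21 in R2i, and 8.57 and 8.56 in 2i. Those of Gpx3 were 6.78 and 6.34 in PD, 6.54 and 6.49 in R2i, and 6.22 and 5.855 in 2i. The lines were thus closest in 2i for Gpx2 and in R2i for Gpx3. The average of Gpx2 includes the 2i arrays, whose level chose the gene. The call of Gpx3 was lost without B18 2i replicate 2 or B20 2i replicate 2 (adjusted p = 0.0643 and 0.0724). C17 against B4 called 6 of 8 members, against 31.6% of all genes. Gclm was lower in C17 in each medium, -0.97 log2 units (SE 0.13, a fold of 1.96, limma adjusted p = 0.000785), and Nqo1 was higher in each, 0.69 (SE 0.12, a fold of 1.62, adjusted p = 0.00258). Gsta4 (0.44, SE 0.11) and Gpx4 (0.39, SE 0.12) were also higher in C17, and Hmox1 (-0.50, SE 0.12) and Gpx3 (-0.44, SE 0.14) lower, at adjusted p of 0.0158, 0.0302, 0.0113 and 0.0412. These 4 calls were lost in 2 to 7 of 12 alternatives each, Gpx4 in 7, although its other detected probe was also higher (0.55, SE 0.12), and without either PD array 2 members were called. With 1 array per line and medium, C17 and B4 are 1 line each, on the same chip.

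Other genes of these pathways, the members left out, were read from lists. In 2i against PD, 8 of 20 measured genes of the NRF2 list were higher and 1 lower, where 23.6% of all genes were called in either direction (1049 higher and 1127 lower of 9207), with a list median of 0.13 log2 units against -0.01 over all genes. Cbr3, a carbonyl reductase, rose by 0.57 (SE 0.13, limma adjusted p = 0.00498), Ephx1, the microsomal epoxide hydrolase, by 0.56 (SE 0.10, adjusted p = 0.000901), and Me1, an NADPH-producing malic enzyme, by 0.54 (SE 0.10, adjusted p = 0.000716). In R2i against 2i the same list had 1 gene higher and 8 lower (median -0.18, 27.6% of all genes called), over arrays shared with the previous comparison, and in R2i against PD 1 higher and 0 lower of 20 (median -0.11, 18.8% of all genes called). The thioredoxin and peroxiredoxin list had 5 of 16 higher in 2i than in PD and 0 lower (median 0.09, 23.6% of all genes called in either direction). Among them were Srxn1, which repairs oxidised peroxiredoxins (0.47, SE 0.08), Txnip, the thioredoxin-binding protein (0.49, SE 0.14), and Txnrd1, a thioredoxin reductase (0.43, SE 0.12). Srxn1 and Txnrd1 are on the NRF2 list as well, so the counts of these lists are not separate.

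Glutathione transferases other than Gsta4 had 4 of 18 higher and 2 lower in 2i than in PD, where 23.6% of all genes were called. Gstp1 and Gstp2, close copies whose probes may not separate them, were higher by 0.53 (SE 0.07) and 0.66 (SE 0.09), and Gsto1, an omega-class transferase, was at -0.93 (SE 0.09, limma adjusted p = 2.35e-06). Of the list of glutathione synthesis and recycling, 2 of 13 were higher and 1 lower, a share near that background, with Glrx, a glutaredoxin, at 1.52 (SE 0.11, limma adjusted p = 4.81e-08), the largest absolute difference among the called genes of the redox and metal lists in that comparison. The other glutathione peroxidases had 0 of 3 higher and 1 lower, Gpx7 at -0.40 (SE 0.10). Of the metal list 3 of 14 were higher in 2i than in PD and 1 lower (Mt3, -0.35, SE 0.11, detected on 9 of 16 arrays), also near it. In R2i against 2i, where Mt1 and Mt2 were higher, 1 of 14 was higher and 4 were lower, with a list median of -0.06 log2 units against 0.01 over all genes and 27.6% of all genes called. The zinc exporter Slc30a1, itself an MTF1 target, was higher by 0.71 (SE 0.19, limma adjusted p = 0.0115) and the zinc importer Slc39a4 was at -0.80 (SE 0.15, adjusted p = 0.000702). In R2i against PD that list had 3 of 14 higher and 3 lower, where 18.8% of all genes were called. Slc39a4 was at -0.48 (SE 0.13, limma adjusted p = 0.0183), and Tfrc was at 0.39 (SE 0.08). Mt4 was at 0.35 (SE 0.10) and was detected on 6 of 16 arrays.

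The list of canonical Wnt targets was read beside Gpx2. In 2i against PD 2 of 8 measured targets were higher and 1 lower, with a list median of -0.03 log2 units against -0.01 over all genes and 23.6% of all genes called. These were Axin2, higher by 0.68 (SE 0.11, limma adjusted p = 0.000348), Cdx1 by 0.83 (SE 0.22, adjusted p = 0.0106), and Ccnd1 at -0.29 (SE 0.07). In R2i against PD, where Gpx2 was higher, 0 of 8 were higher and 2 lower by limma (median -0.06, 18.8% of all genes called), Notum, a secreted Wnt inhibitor, at -0.93 (SE 0.08, adjusted p = 2.66e-07) and Ccnd1 at -0.39 (SE 0.06). For these values B20 minus B18 was 1.36 for Notum (SE 0.16, limma adjusted p = 0.00022) and 0.60 for Ccnd1 (SE 0.13, adjusted p = 0.0169). Both were thus lowered more in B18 than in B20. In R2i against 2i 0 of 8 were higher and 3 lower, with a list median of -0.10 log2 units against 0.01 over all genes and 27.6% of all genes called. In B4 and C17, where Gpx2 was lower in PD than in SB, 1 of 6 was higher in PD and 0 lower, Notum at 1.34 (SE 0.21, limma adjusted p = 0.00539), against 5.23% of all genes, and in R2i against SB 2 of 6 were higher and 0 lower, against 2.20%. In C17 against B4 the NRF2 list had 1 of 20 higher and 6 lower (median -0.20). Its share of called genes was near the 31.6% over all genes. The largest were Gstm1 at -1.43 (SE 0.12, limma adjusted p = 0.000114), Ephx1 at -1.15 (SE 0.12) and, higher in C17, Cbr1 at 1.02 (SE 0.11, adjusted p = 0.000316). In PD against SB, where Gpx2 and Gclm were lower in PD, the same list had 0 of 20 higher and 0 lower by limma. Only 5.23% of all genes were called there, so a list of 20 with no call says little.

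Markers of stem cells and of other cell types moved with medium. In B18 and B20 the summed level of the 8 embryonic stem cell markers was 15.62 to 15.71 in PD, 15.54 to 15.6 in 2i and 15.18 to 15.45 in R2i. In R2i against PD 3 of these 8 were lower and 0 higher, where 18.8% of all genes were called. They were Tdgf1 (-0.92, SE 0.12), Dppa5a (-0.55, SE 0.06) and Nanog (-0.23, SE 0.07). In 2i against PD 2 were lower and 0 higher, where 23.6% of all genes were called. The summed level of the primitive endoderm list was 9.27 to 9.78 in 2i, 10.12 to 10.44 in PD and 9.58 to 10.03 in R2i in B18 and B20, with 4 to 6 of 9 markers detected. Of its transcription factors, Gata4, Sox17 and Foxa2 were detected on no array, Gata6 on 3 of the 16 and Sox7 on all 16. Sox7 was at -1.86 in 2i minus PD (SE 0.09, limma adjusted p = 3.32e-10) and at -1.16 in R2i minus PD (SE 0.08). The 3 arrays with Gata6 were those of B18 in R2i, so it passed the filter only through the group where it was high. Its R2i minus PD value was 0.45 (SE 0.08), with B20 minus B18 at -0.70 (SE 0.16). Both are descriptions with no test. Of 10 feeder fibroblast markers, 1 to 3 were detected per array. Fbln2 was detected on 15 of 16 arrays of B18 and B20, Thy1 on 13 and Acta2 on 1, and in B4 and C17 Thy1 on 6 of 6, Acta2 on 3 (4.36 to 7.12 over the 6 arrays) and Fbln2 on 2. The other 7, Col1a1, Col1a2 and Col3a1 among them, were detected on none. Thy1, which other cell types also express, was 0.88 higher in 2i than in PD (SE 0.11, limma adjusted p = 1.52e-05). In B4 and C17 the trophoblast list summed to 8.97 and 9.22 in SB and to between 8.18 and 8.77 in the other media, with 2 to 4 of 8 markers detected and Cdx2, Elf5, Eomes and Hand1 on no array. In B18 and B20 that list summed to 8.38 to 8.87 in 2i, 8.75 to 9.17 in PD and 8.49 to 9.22 in R2i, so the media overlapped. Of 5 measured there, 1 was higher and 2 lower in 2i than in PD. Between R2i and PD 1 was also higher and 2 lower, where 23.6% and 18.8% of all genes were called. The part of any of these cell types in the results on Gpx2 and the other members was not tested.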

How the data were processed

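The deposited probe profiles give a raw bead intensity and a detection p-value for every probe and array, per the file headers. The authors' deposited log2 tables served as an alternative. GenomeStudio and limma, with no version, are the tools in the submitters' processing notes. Each platform's intensities were corrected against negative controls and quantile-normalised by neqc (offset 16) of limma 3.58.1, run in R 4.3.3. Probes with a detection p below 0.01 on at least 2 arrays were kept, with the probe of highest mean per gene, and symbols were updated with RefSeq's gene table. B18 and B20 were fitted with 1 mean per line and medium (10 residual degrees of freedom), B4 and C17 with medium and line as additive terms (2 residual degrees of freedom), with eBayes and Benjamini-Hochberg adjustment over all genes. The number of arrays limits the precision. The code was tested on simulated data. Named genes are all members, up to 3 called genes of a list with the largest change and the 5 nearest patterns of Gpx2 and Mt2. The members and gene lists were chosen with earlier results of these data known. Leaving Mt2 out of the counts of line differences in a medium effect was decided after its values were seen.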

Additional observations from a re-analysis of the deposited data

Results flagged for a closer look

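Mt1 had a medium effect that differed between B18 and B20 by a test of the difference itself. For 2i against PD the difference between lines was -0.68 log2 units (SE 0.16, limma adjusted p = 0.0402), lost in 16 of 23 alternatives, over which the adjusted p ran from 0.00546 to 0.134. For R2i against PD it was -0.57 (SE 0.14, limma adjusted p = 0.0334), lost in 10 of 23, with adjusted p from 0.00875 to 0.0847. The sign stayed negative in all of these. Mt1 lies near the brightest probes of the arrays, each line is on its own chip, and the part of either in this difference was not tested.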

How the results depend on the processing

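Alternatives were no background correction, median scaling, no filter on dim probes, detection on every array, all probes fitted, the authors' deposited log2 values, each line alone, each array left out and, for B18 and B20, a replicate block. No difference that passed changed sign, but differences that did not pass could: 2i minus PD was -0.12 for Mt2 over both lines, 0.71 in B18 and -0.95 in B20. R2i against PD called 2 members instead of 4 in B20 alone, and R2i against 2i called 0 instead of 4 in B18 alone. The line difference of 2i against PD called 0 instead of 1 with median scaling, without the filter and with the replicate block, 2 with Mt2 counted (an alternative added after the data were seen), and 0 to 2 with 1 array left out. That of R2i against PD called 2 without background correction, 0 with median scaling, and 0 to 2 with 1 array left out. With 1 array left out, B20 against B18 called 1 (without B18 2i replicate 2) to 4 members (without B20 PD replicate 2), R2i against PD in B4 and C17 0 to 2 (without either SB array), R2i against SB 1 to 2 (without B4 SB), PD against SB 1 to 2 and C17 against B4 2 (without either PD array) to 5; a lone array is then assumed to vary like the others. Without the filter R2i against SB and PD against SB called 0, and PD against SB called 1 with median scaling or all probes fitted. Gpx2 in 2i against PD and R2i was 1.30 instead of 1.92 without background correction. The replicate block changed no other count of calls. With each group's mean taken away, the deviations of same-numbered arrays correlated across genes at -0.118 to 0.13 over 22 pairs, 2 of them over 0.1. The replicate numbers thus showed little pairing. In 2i the 2 deviations of a group mirror each other, so the pairs are not all separate. Gclc lay near background, and Mt1 near the top of the range.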
